A study of Mus musculus with 30 samples.

Results

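The genes of glycolysis and of the hypoxia response were followed through the differentiation of mouse embryonic stem cells (ESCs) towards neuromesodermal progenitors (NMPs), bipotent cells of the posterior embryo that feed both the spinal cord and the mesoderm. The set was a fixed list of 33 of the 54134 gene entries of the deposited count table, chosen by name: 4 transporters of glucose and lactate, 14 glycolytic enzymes, 4 enzymes that decide the fate of pyruvate, and 11 genes known to respond to low oxygen. This list and the further lists below were chosen with earlier results of these data known. Their counts beside the shares of all genes are therefore descriptions and not independent support. Of these, 32 passed the filter on low counts, as did 12149 genes in all. Pgam1, a phosphoglycerate mutase, did not pass, with 162 counts over all 30 libraries.

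Cells of the Bruce4 ESC line were either wildtype or Nr6a1-/-, the latter a single clone with CRISPR/Cas9 deletions in exon 4 of each allele of Nr6a1, so that genotype and clone cannot be told apart in any comparison below. All groups received FGF2 for 48 h and were collected at that point (d2), after a further 12 h (d2.5) or 24 h (d3) of FGF2 with the Wnt agonist CHIR99021, or after 24 h more of that treatment without (d4) or with the growth factor Gdf11 (d4G). There were thus 10 groups of 3 libraries. The methods speak of biological replicates without saying whether these were separate cultures, so that p-values measure the spread between libraries only. Libraries read the 3′ end of polyadenylated RNA and held between 1570714 and 3688197 counts. The labels give an index for each library, and every d4 library shared its index with a library of d4G or d3. Samples were pooled after indexing, so that libraries sharing an index lay in different pools. The pools are not named, and the part of pool in comparisons of d4 with d3 or d4G cannot be told apart.

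As a sum, markers of the intended cells followed the stages. The summed level of 9 NMP genes, among them T, Sox2 and the Cdx genes, was 130 to 163 CPM (counts scaled to library size) at d2, 1087 to 1676 CPM at d3 and 676 to 981 CPM at d4. Sox2 made up most of the d2 sum and ran the other way. Its mean fell from 126 CPM at d2 to 47.2 CPM at d4 in wildtype and from 145 to 39.2 CPM in Nr6a1-/-. At d4 the genotypes also differed in these cells, since 6 of the 6 tested genes of presomitic mesoderm (PSM), the precursor of somites, were higher in Nr6a1-/- (summed level 434 to 547 CPM in wildtype and 967 to 1001 CPM in Nr6a1-/-), while 6 of 9 pluripotency genes and 6 of 8 tested endoderm genes were lower. Of 6 tested neural genes 3 were lower there (25.2 to 32.6 against 6.5 to 13.2 CPM), and of the 9 NMP genes 4 were higher and 3 lower. The endoderm sum was led by Epcam and Krt18 or by Epcam and Trh in every group, with Krt18 first in d4G wildtype. It stood at 761 to 1002 CPM at d2, before Wnt activation, and so does not measure endoderm alone. The summed levels of genes of endothelial and blood cells, 7.2 to 53.5 CPM over all libraries, and of feeder fibroblasts, 17 to 74.8 CPM, were low. Among the libraries, d4 wildtype replicate 2 had the highest pluripotency sum of its group (130 CPM against 89.2 and 108 CPM), d4 Nr6a1-/- replicate 3 decided several calls described below, and d4 Nr6a1-/- replicate 1 lay farthest from the mates of its group over all genes (SD of log2 differences 0.456, next 0.438). Since the deletions lie in an internal exon and the reads come from 3′ ends, the counts of Nr6a1 do not check the genotype labels.

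Glycolysis breaks glucose down to pyruvate, which is then either reduced to lactate by lactate dehydrogenase or passed to mitochondria by pyruvate dehydrogenase, whose kinases (Pdk genes) shut off the second route. The hypoxia-inducible factors (HIFs) are destroyed in the presence of oxygen after the prolyl hydroxylases of the Egln family have modified them, and in low oxygen they raise many glycolytic genes along with survival, vessel and collagen genes through short DNA elements. In vertebrate embryos glycolysis is known to be graded along the PSM, highest at the tail end, and to be tied there to FGF and Wnt signalling.

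Of the 33 genes, 30 had a promoter window in RefSeq (GRCm38.p6, 250 bases before to 50 after a transcription start), and Ndrg1, Slc2a3 and Bhlhe40 did not. These windows were searched on both strands for ACGTG and GCGTG, the core letters of the element that HIFs bind. Of the 45 windows of the listed genes 57.8% held ACGTG, against 19.6% of all 32851 windows, and 57.8% held GCGTG, against 32.4%. The windows were not matched for base composition, and a match is not evidence of binding. The promoters of 5 genes that the results turn on are printed 5′ to 3′ along the gene, with both motifs and their reverse complements in capitals. ACGTG inside CACGTG reads on both strands and was counted on each.
Egln3, chr12:54203825-54204124, minus strand: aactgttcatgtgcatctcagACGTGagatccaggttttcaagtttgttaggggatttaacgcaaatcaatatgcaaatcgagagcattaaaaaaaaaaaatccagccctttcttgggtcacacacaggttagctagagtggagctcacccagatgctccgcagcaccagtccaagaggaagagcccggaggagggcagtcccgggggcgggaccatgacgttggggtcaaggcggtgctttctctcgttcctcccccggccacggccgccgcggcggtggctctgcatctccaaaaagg
Bnip3, chr7:138909457-138909756, minus strand: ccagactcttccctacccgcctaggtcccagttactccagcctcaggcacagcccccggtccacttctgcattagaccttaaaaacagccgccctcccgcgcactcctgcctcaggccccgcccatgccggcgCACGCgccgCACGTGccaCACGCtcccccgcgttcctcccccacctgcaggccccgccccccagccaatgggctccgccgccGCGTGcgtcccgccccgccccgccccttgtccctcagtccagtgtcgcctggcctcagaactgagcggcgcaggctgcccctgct
Ldha, chr7:46845554-46845853, plus strand: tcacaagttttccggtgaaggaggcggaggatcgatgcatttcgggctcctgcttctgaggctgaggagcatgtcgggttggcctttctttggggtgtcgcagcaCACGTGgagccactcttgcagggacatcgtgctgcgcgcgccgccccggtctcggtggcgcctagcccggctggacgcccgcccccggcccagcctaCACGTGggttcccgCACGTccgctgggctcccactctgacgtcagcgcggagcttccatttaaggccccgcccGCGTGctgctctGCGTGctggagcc
P4ha1, chr10:59323046-59323345, plus strand: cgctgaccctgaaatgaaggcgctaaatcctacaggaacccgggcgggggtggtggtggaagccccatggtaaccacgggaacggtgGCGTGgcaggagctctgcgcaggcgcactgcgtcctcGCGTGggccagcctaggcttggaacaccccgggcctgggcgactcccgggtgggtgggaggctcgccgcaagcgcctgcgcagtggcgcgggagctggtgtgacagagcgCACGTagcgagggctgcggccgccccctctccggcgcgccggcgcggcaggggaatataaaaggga
P4ha2, chr11:54100674-54100973, plus strand: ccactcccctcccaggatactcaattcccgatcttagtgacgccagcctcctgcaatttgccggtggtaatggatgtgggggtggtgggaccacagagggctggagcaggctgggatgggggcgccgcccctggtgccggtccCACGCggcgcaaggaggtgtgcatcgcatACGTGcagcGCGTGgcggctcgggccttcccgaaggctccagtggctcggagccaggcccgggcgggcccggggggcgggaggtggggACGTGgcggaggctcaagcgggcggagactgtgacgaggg

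The promoter of Egln3, the gene with the largest genotype difference of the list at d4, held 1 ACGTG, 229 bases before the start (offset -229), and 0 GCGTG. Bnip3 held 2 and 3, with CACGTG beginning 108 bases before the start (offset -108). Ldha, printed from the richer of its 2 windows, held 5 ACGTG and 2 GCGTG. P4ha1 and P4ha2 held these letters as well, 1 ACGTG and 2 GCGTG in P4ha1 and 2 of each in P4ha2. Both were called lower in Nr6a1-/-, P4ha1 at d2, d2.5 and d3 and P4ha2 at d2.5, d3 and d4. Egln3 and Bnip3 were called higher at d4 and d4G, so that only P4ha2 at d4 was opposite to them at a shared stage. These letters occurred both in promoters of genes that were higher in Nr6a1-/- and in promoters of genes that were lower. Windows of 28 of the 30 listed genes held at least 1 of the motifs (80% of the 45 windows, against 43.8% of all windows). Their presence in promoters of both directions was thus nearly given beforehand, and the part of the motifs in the direction of change was not tested.

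Across the stages of wildtype cells more listed genes fell than rose at first, and more rose than fell at the end. Between d2 and d2.5, the first 12 h of Wnt activation, 12 of the 32 tested genes fell and 6 rose, against 12.1% and 13.3% of all tested genes (25.4% called in either direction), and the median log2 change of the list was -0.32 against 0.01 for all genes. Calls here and throughout are edgeR quasi-likelihood tests with a Benjamini-Hochberg false discovery rate (FDR) below 0.05. Between d2.5 and d3 3 rose and 2 fell, against 5.91% and 5.56% of all genes (11.5% in all), and between d3 and d4 9 rose and 6 fell, against 9.77% and 11.3% (21.1% in all). In Nr6a1-/- cells the first step gave 11 falls and 4 rises, against 11.2% and 12.9% of all genes (24.1% in all). The next step gave 5 rises and 2 falls, against 7.43% and 8.45% (15.9% in all), and the last 19 rises and 3 falls, against 13.6% and 12.3% (25.9% in all). At the last step, where pool may differ as well, the median log2 change was 0.22 in wildtype and 0.56 in Nr6a1-/-. A median gene of the list stood at 37.3 CPM over all libraries, against 20.6 CPM for all tested genes, and more abundant genes pass the test at smaller changes.

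**Figure D1:**
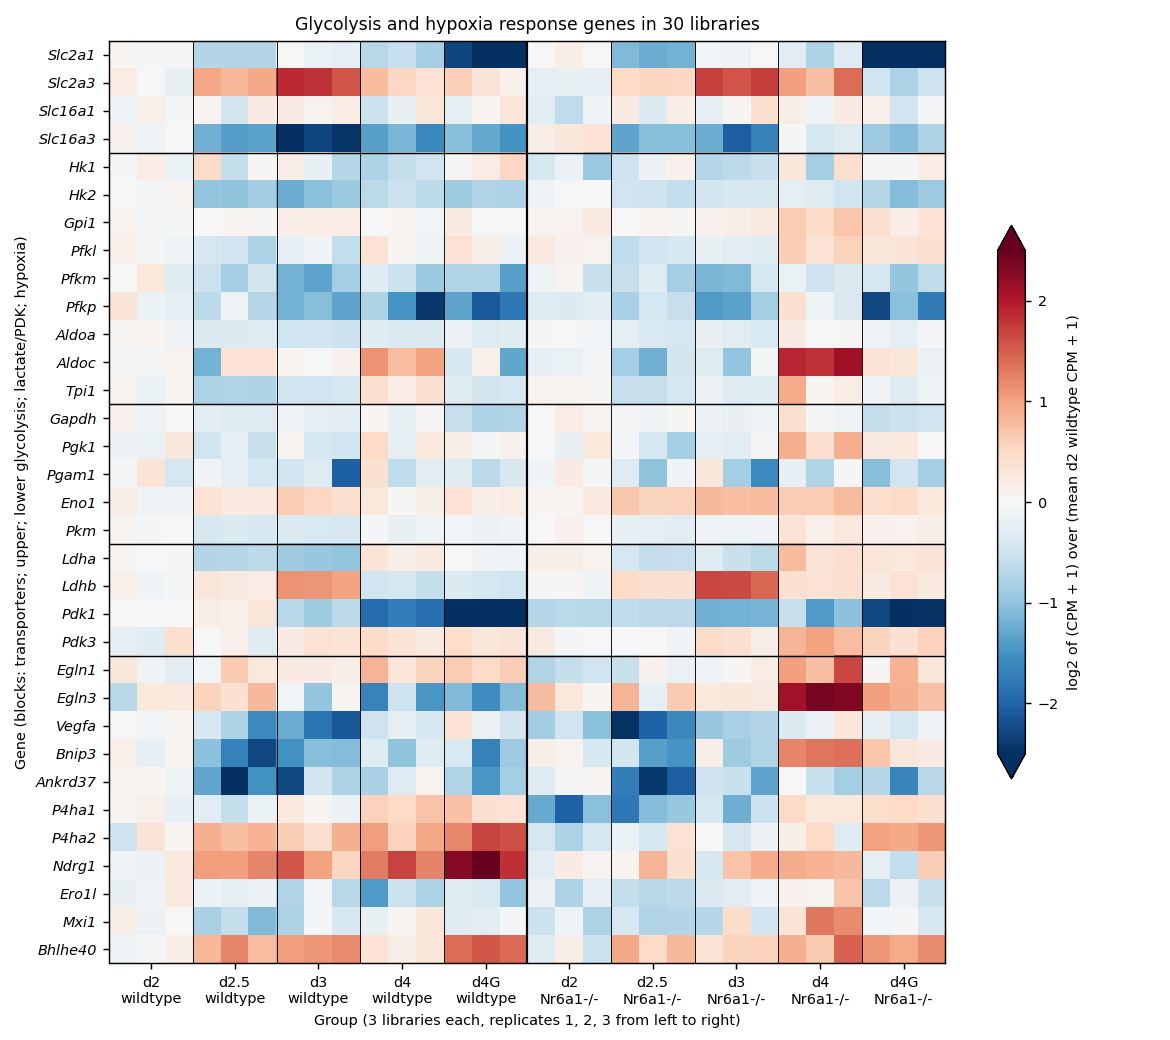
Level of each of the 33 genes (vertical axis, in blocks by role) in each of the 30 libraries (horizontal axis, 3 per group), as log2 of CPM + 1 over the mean d2 wildtype CPM + 1, with red above and blue below that mean. Slc2a1 and Pdk1 are darkest blue in both d4G groups, and Egln3 is darkest red in the 3 libraries of d4 Nr6a1-/-.

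The glucose transporters moved in opposite directions at the first step and in the same direction at the later ones. Slc2a1, the basal glucose transporter GLUT1, stood at 449, 422 and 421 CPM in the wildtype libraries at d2, at 258, 259 and 259 CPM at d2.5, at 429, 386 and 370 CPM at d3 and at 265, 289 and 242 CPM at d4. It fell, rose and fell again, and each of these steps was called, with log2 changes of -0.74, 0.61 and -0.57 (edgeR FDR 2.58e-07, 1.94e-05 and 1.94e-05). Slc2a3, the high-affinity transporter GLUT3, rose through the same steps from 119, 104 and 92.6 CPM at d2 to 386, 369 and 313 CPM at d3, then fell to 184, 152 and 136 CPM at d4. Within a library the log2 ratio of Slc2a3 to Slc2a1 counts therefore climbed from -2.04 ± 0.14 (SD, n = 3) at d2 to -0.15 ± 0.09 at d3 in wildtype. In Nr6a1-/- it ran from -2.29 ± 0.06 to -0.29 ± 0.03.

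The lactate dehydrogenases ran in opposite directions. Ldha, the subunit that favours lactate formation, stood at 1230, 1169 and 1131 CPM at d2, 631, 607 and 596 CPM at d3 and 1493, 1306 and 1377 CPM at d4 in wildtype. Its fall lay between d2 and d2.5 (log2 change -0.70, edgeR FDR 1.68e-07), and from d2.5 to d3 it was not called (-0.24, FDR 0.0741). Ldhb, the subunit that favours the return of lactate to pyruvate, stood at 168, 143 and 150 CPM at d2, 334, 331 and 310 CPM at d3 and 109, 114 and 101 CPM at d4. No library of d3 overlapped any of d2 or d4 for either gene, and the d3 to d4 changes in wildtype were 1.19 for Ldha and -1.59 for Ldhb on the log2 scale (edgeR FDR 1.09e-12 and 6.74e-17). The log2 ratio of Ldhb to Ldha counts rose from -2.94 ± 0.08 (SD, n = 3) at d2 to -0.91 ± 0.03 at d3, and dropped to -3.69 ± 0.15 at d4. The size of such a ratio depends on how each 3′ end is captured, so that only its change between groups is read. Slc16a3, which exports lactate, followed Ldha, from 77 to 89.6 CPM at d2 to 13 to 16.1 CPM at d3 and 26.7 to 37 CPM at d4 in wildtype, whereas Slc16a1, the more general monocarboxylate transporter, was called at none of these steps in either genotype.

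**Figure D2:**
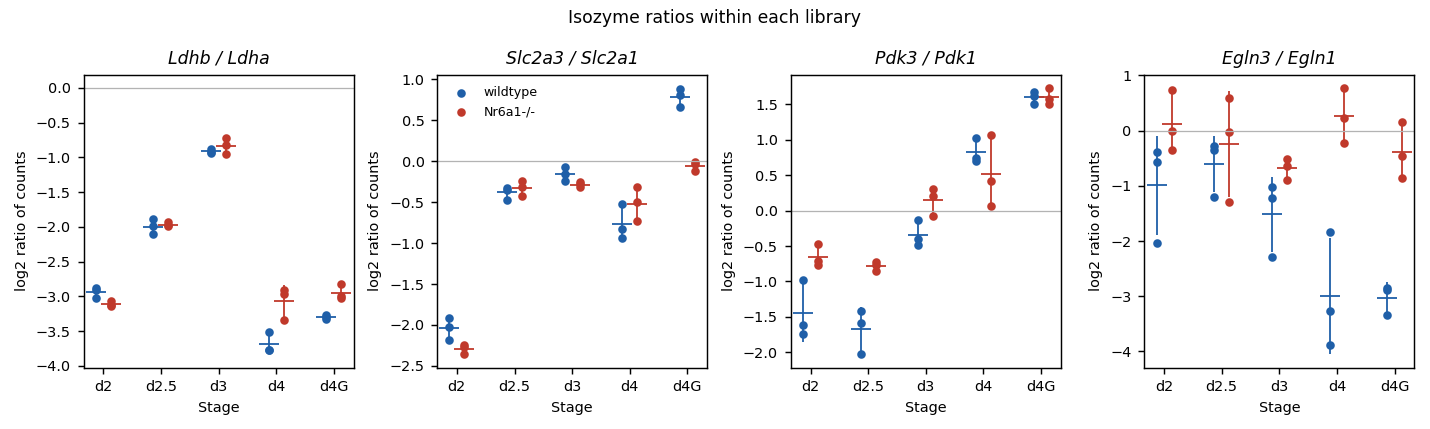
Log2 ratio of the counts of 2 related genes (vertical axis) within each library, by stage (horizontal axis), for wildtype (blue) and Nr6a1-/- (red), with points for libraries and bars for the mean ± SD of 3. The ratio of Ldhb to Ldha peaks at d3 in both genotypes, and the ratio of Egln3 to Egln1 at d4 is -3.00 on average in wildtype and 0.26 in Nr6a1-/-.

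Several glycolytic enzymes also fell at the first step. From d2 to d2.5 in wildtype, Hk2, a hexokinase that traps glucose in the cell, fell by 0.96 on the log2 scale, the triosephosphate isomerase Tpi1 by 0.77, the phosphofructokinase Pfkl by 0.56, the pyruvate kinase Pkm by 0.38 and the aldolase Aldoa by 0.34 (edgeR FDR 4.54e-10 to 0.00334). All 5 calls held under each alternative run. Eno1, an enolase, was the only glycolytic enzyme to rise at this step, by 0.28 in wildtype (edgeR FDR 0.0136) and 0.48 in Nr6a1-/- (3.57e-05), and its wildtype call was lost on leaving out d2 wildtype replicate 2 (0.23, FDR 0.0832), d2 wildtype replicate 3 (0.23, FDR 0.0881) or d2.5 wildtype replicate 1 (0.24, FDR 0.0761). Counts of Eno1 and of Gapdh are uncertain, because near-identical copies (3 for Eno1, chiefly Eno1b, and 60 for Gapdh) held 43% and 45.8% of the combined counts, and reads could have been split among them. With the copies added in, no call of either gene was lost, but Eno1 gained some. Its change from d2.5 to d3 in Nr6a1-/- was then called (0.22, edgeR FDR 0.0439). So was its genotype difference in Gdf11 response (-0.50, FDR 0.0062, against -0.39 and FDR 0.0732 without the copies).

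Pdk1, a pyruvate dehydrogenase kinase, stood at 95.3, 95.6 and 94.6 CPM at d2 and at 24.4, 28.2 and 25.2 CPM at d4 in wildtype, with called falls at d2.5 to d3 and d3 to d4 (log2 changes of -0.95 and -1.12, edgeR FDR 2.3e-07 and 5.17e-08). Pdk3, another member of the family, was called at none of these wildtype steps. The log2 ratio of Pdk3 to Pdk1 counts climbed from -1.45 ± 0.40 (SD, n = 3) at d2 to 0.83 ± 0.18 at d4 in wildtype, and the 3 wildtype libraries of d4 lay above all of d2.

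Hypoxia response genes did not move as a block in wildtype. From d2 to d2.5 Bnip3, a mitophagy receptor, fell by 1.92 on the log2 scale, Ankrd37 by 2.35 and Vegfa, the vascular endothelial growth factor, by 0.90, while Bhlhe40, a transcriptional repressor, rose by 1.07, P4ha2, a subunit of the collagen prolyl hydroxylase, by 0.91 and Ndrg1 by 1.33 (edgeR FDR 0.00126 to 0.027). Ankrd37 was sparse, with 0 to 4 counts per wildtype library at d2.5. The call of Vegfa was lost without d2.5 wildtype replicate 3 (-0.62, FDR 0.103). The call of Ndrg1 was lost on leaving out d2 wildtype replicate 1 or 2, or d2.5 wildtype replicate 1 or 3 (1.24 to 1.36, FDR 0.0545 to 0.0783).

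Before Wnt activation few listed genes differed between the genotypes, though some markers did. At d2 2 of 9 pluripotency genes (653 to 711 CPM in wildtype against 474 to 503 CPM) and 2 of 6 tested neural genes were lower in Nr6a1-/-. Of 8 tested endoderm genes 2 were higher and 1 lower, and no NMP or tested PSM gene was called. Their part in the d2 differences was not tested. At d2, 2 of the 32 genes were called, both lower in Nr6a1-/-, against 4.07% of all genes (2.72% lower, 1.35% higher), and the median log2 difference of the list was -0.05. Both calls held under all alternatives. Pdk1 stood at 57.9, 59.2 and 58.4 CPM in Nr6a1-/- against 95.3, 95.6 and 94.6 CPM in wildtype, and P4ha1, the main catalytic subunit of the collagen prolyl hydroxylase, at 7.06, 3.74 and 8.35 CPM against 18.8, 20.2 and 15.8 CPM. The groups did not overlap for either gene, as for 21.3% of all genes (log2 difference -0.70 ± 0.13 (SE), edgeR FDR 0.000108 for Pdk1, and -1.50 ± 0.27, FDR 0.000125 for P4ha1).

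After 12 h of Wnt activation 2 genes were higher and 5 lower in Nr6a1-/-, against 2.86% and 3.59% of all genes (6.45% in all). After 24 h 8 were higher and 3 lower, against 4.47% and 6.3% (10.8% in all). Markers differed at d2.5 as well. In Nr6a1-/- 3 of 9 NMP genes were higher, 5 of 8 tested endoderm genes were lower and 1 higher, and 3 of 9 pluripotency genes were lower and 1 higher. No tested PSM or neural gene was called, and the part of markers in the d2.5 differences was not tested. Pdk1 was again lower, at 60.6, 59.9 and 60.5 CPM against 107, 105 and 117 CPM at d2.5 (log2 difference -0.86, edgeR FDR 2.51e-06) and at 40.6, 41.5 and 42 CPM against 58.4, 51.1 and 60 CPM at d3 (-0.45, FDR 0.0172). P4ha1 and P4ha2 were both lower at both stages, P4ha1 by -0.97 and -0.80 and P4ha2 by -0.94 and -0.89 on the log2 scale (edgeR FDR 0.00827 to 0.0158). Most of these calls rested on single libraries. At d2.5 that of P4ha1 was lost without d2.5 wildtype replicate 1 or 3 or d2.5 Nr6a1-/- replicate 1 (-0.94 to -0.75, FDR 0.0664 to 0.11), and that of P4ha2 without d2.5 Nr6a1-/- replicate 2 (-0.75, FDR 0.0759). That of Pdk1 at d3 was lost on leaving out d3 wildtype replicate 1 or 3 or d3 Nr6a1-/- replicate 1 or 2 (-0.45 to -0.41, FDR 0.0507 to 0.0902), that of P4ha1 without d3 wildtype replicate 1 or d3 Nr6a1-/- replicate 2 (-0.70 and -0.58, FDR 0.0841 and 0.128), and that of P4ha2 without d3 wildtype replicate 3 or d3 Nr6a1-/- replicate 2 (-0.75 and -0.78, FDR 0.0956 and 0.0619).

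The 8 genes higher in Nr6a1-/- at d3 were Slc16a3, Hk2, Aldoa, Eno1, Pkm, Ldha, Ldhb and Vegfa. Hk2 stood at 153, 160 and 162 CPM against 89.8, 103 and 112 CPM in wildtype, Ldhb at 494, 487 and 418 CPM against 334, 331 and 310 CPM, and Ldha at 955, 802 and 738 CPM against 631, 607 and 596 CPM. The groups did not overlap for any of these, as for 28.5% of all genes, with log2 differences of 0.64, 0.52 and 0.44 (edgeR FDR 7.77e-06, 9.19e-06 and 0.000703). These calls and that of Pkm (0.27, FDR 0.00417) held under all alternatives, while those of Slc16a3, Aldoa, Eno1 and Vegfa did not. Slc16a3 (0.86, FDR 0.00262) was lost only without d3 Nr6a1-/- replicate 1 (0.61, FDR 0.0578). Aldoa (0.23, FDR 0.0334) was lost without any 1 of d3 wildtype replicates 1, 2 and 3 and d3 Nr6a1-/- replicates 1 and 2 (0.17 to 0.24, FDR 0.0806 to 0.224), and Eno1 (0.27, FDR 0.0333) without any 1 of d3 wildtype replicates 2 and 3 and d3 Nr6a1-/- replicates 1, 2 and 3 (0.22 to 0.29, FDR 0.0564 to 0.19). The change from d2 to d3 differed between the genotypes for 3 genes, Hk2, Ldhb and Vegfa, all more positive in Nr6a1-/-, against 1.19% of all genes more positive and 1.09% more negative (2.27% in all). The genotypes also differed in markers at d3. Of the PSM genes 3 of 6 tested were higher in Nr6a1-/- (summed level 129 to 150 CPM in wildtype and 207 to 239 CPM in Nr6a1-/-), of the NMP genes 4 of 9 were higher and 1 lower, of the endoderm genes 5 of 8 tested were lower (549 to 604 against 429 to 463 CPM), and of the pluripotency genes 4 of 9 were lower and 1 higher (209 to 242 against 150 to 165 CPM). Of the neural genes 2 of 6 tested were lower in Nr6a1-/- (18.8 to 22.7 against 9.8 to 17.5 CPM). The part of these markers in the d3 differences was not tested.

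Vegfa was called in opposite directions 12 h apart. It stood at 12.9, 9.65 and 5.06 CPM in wildtype and 2.3, 3.5 and 5.01 CPM in Nr6a1-/- at d2.5, and at 6.76, 4.14 and 3.2 CPM and 8.43, 9.41 and 10 CPM at d3. The groups did not overlap at either stage (25.2% of all genes at d2.5), and the order turned round between them (log2 difference -1.34, edgeR FDR 0.0139 at d2.5, and 1.01, FDR 0.0466 at d3). Both calls were lost in several alternatives, over which FDR ranged from 0.00244 to 0.176 at d2.5 and from 0.0264 to 0.241 at d3. The d3 call was lost without any 1 of d3 wildtype replicates 2 and 3 and d3 Nr6a1-/- replicates 1, 2 and 3 (0.77 to 1.06), and the d2.5 call without d2.5 wildtype replicate 1 (-1.01), d2.5 wildtype replicate 2 (-1.30) or d2.5 Nr6a1-/- replicate 1 (-1.12).

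**Figure D3:**
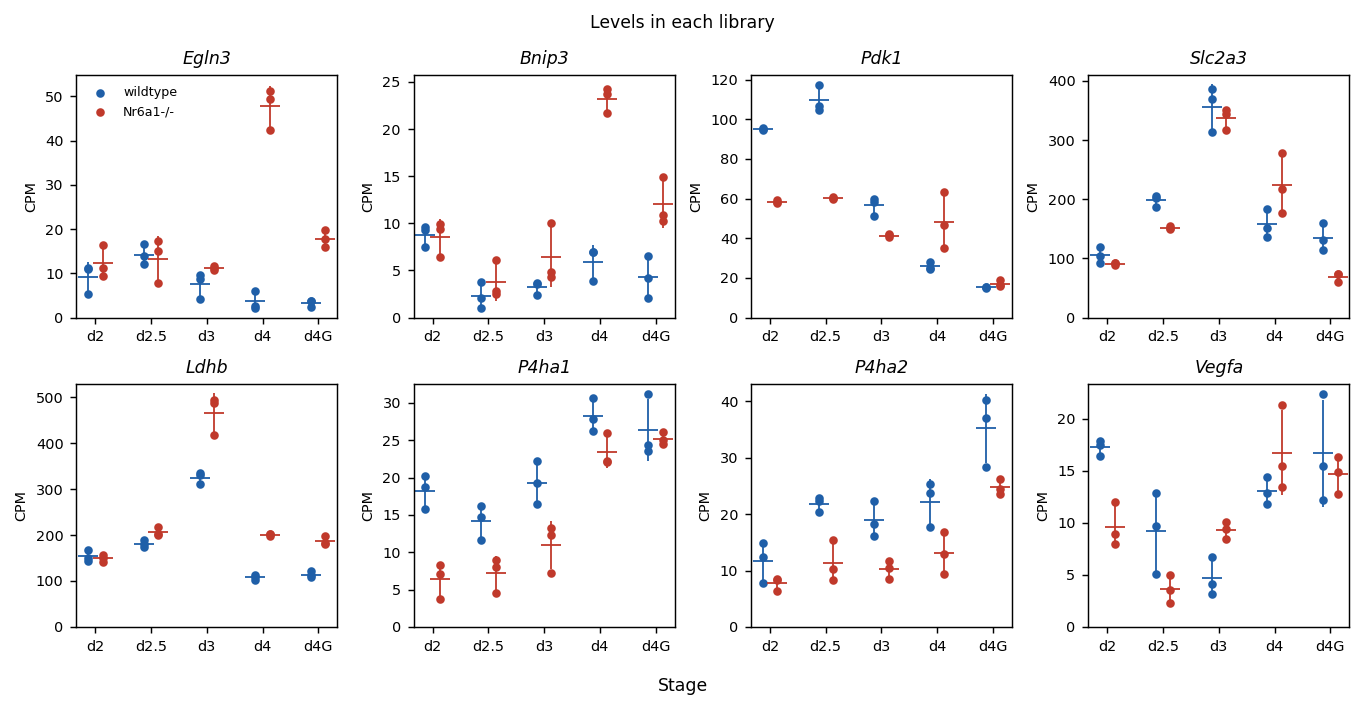
CPM (vertical axes, from 0) of 8 genes in each library by stage (horizontal axis), for wildtype (blue) and Nr6a1-/- (red), with points for libraries and bars for the mean ± SD of 3. Egln3 and Bnip3 separate the genotypes at d4 and d4G, and Pdk1 and P4ha1 separate them at d2, d2.5 and d3.

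The list, chosen with earlier results of these data known, stood apart between the genotypes at d4. Of the 32 genes 22 were higher and 1 was lower in Nr6a1-/-, against 9.7% and 9.18% of all tested genes (18.9% in all). The median log2 difference of the list was 0.53, against 0.02 over all genes, and the groups did not overlap for 20 of the 32 genes, 17 of them higher and 3 lower, against 29.2% of all genes (15.2% higher, 14% lower). Together the 33 genes took 0.625% ± 0.022 (SD, n = 3) of the counts in d4 wildtype and 0.803% ± 0.052 in d4 Nr6a1-/-. Every role took part: 3 of 4 transporters, 6 of 9 upper glycolytic genes, 3 of 4 tested lower glycolytic genes, all 4 lactate dehydrogenase and Pdk genes, and 6 of 11 hypoxia response genes were higher.

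The size of this count rested in part on d4 Nr6a1-/- replicate 3. Without it 15 genes were called, all higher, and the median was 0.42. The calls then lost were Slc2a1, Slc2a3, Pfkl, Pgk1, Egln1, P4ha2, Mxi1 and Bhlhe40 (log2 differences of 0.21, 0.33, 0.41, 0.52, 0.34, -0.56, 0.88 and 0.59, edgeR FDR 0.0543 to 0.319). With d4 wildtype replicate 2 also left out 14 genes were called, again all higher. Without d4 Nr6a1-/- replicate 1 17 genes were higher and 1 lower with a median of 0.52, the calls of Slc2a1, Hk2, Pfkl, Pgk1 and Ldha were lost (log2 differences of 0.15, 0.22, 0.38, 0.51 and 0.12), and the count over all genes rose from 2294 to 2625. Under all alternatives 12 calls held, those of Slc16a3, Gpi1, Pfkp, Aldoa, Aldoc, Eno1, Ldhb, Pdk1, Pdk3, Egln3, Bnip3 and Ero1l. The d4 Nr6a1-/- libraries were the ones with higher PSM genes and lower genes of the pluripotency and endoderm lists described above. The part of cell composition in the list's difference was not tested, and in bulk RNA fewer cells of a type and less RNA per cell cannot be told apart.

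**Figure D4:**
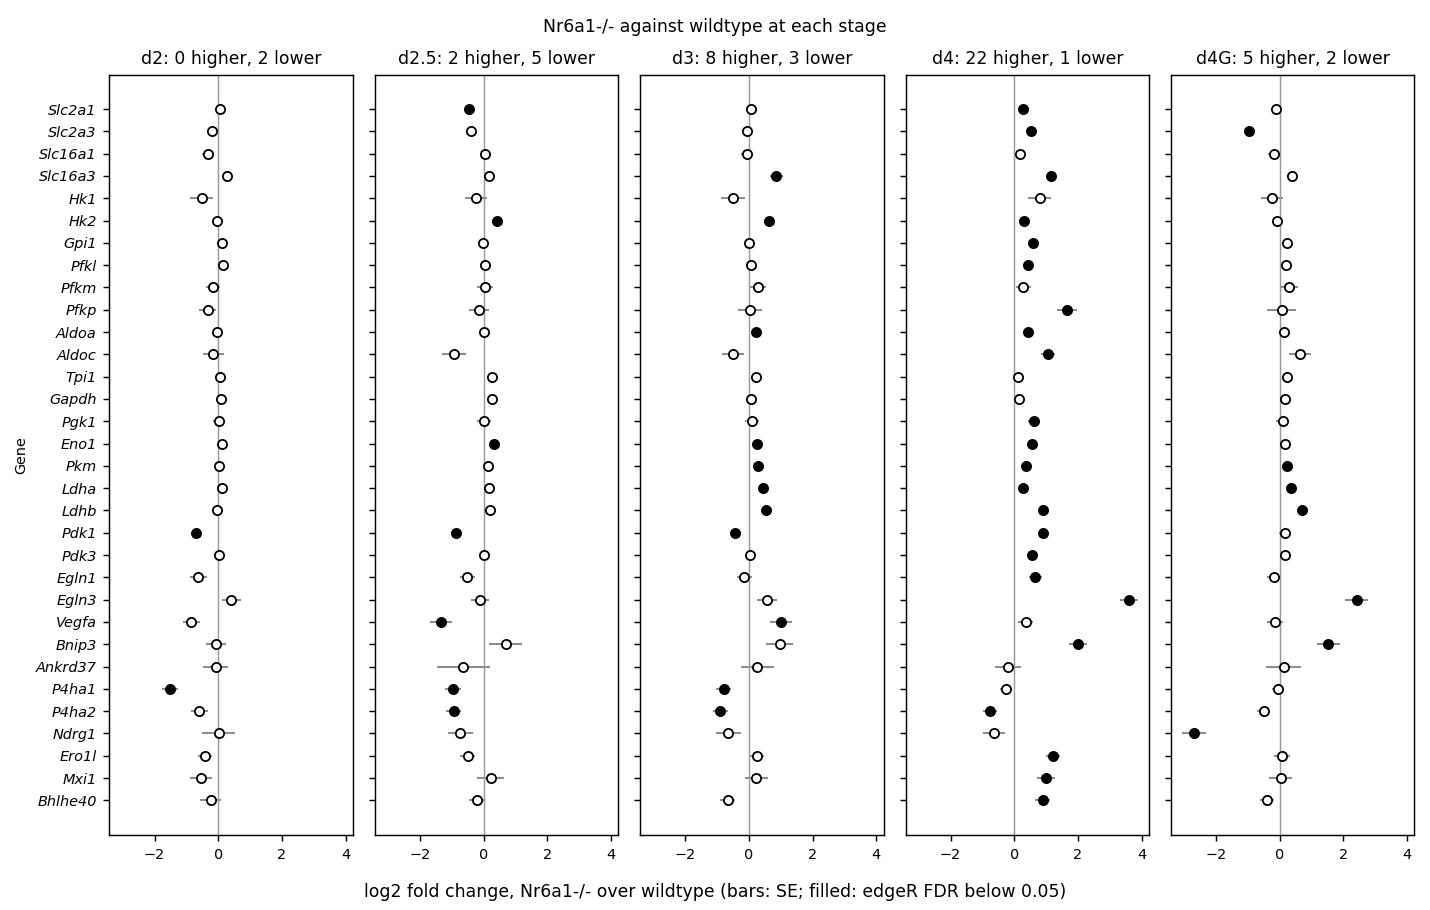
Log2 fold change of Nr6a1-/- over wildtype (horizontal axes, with bars of 1 SE) for the 32 tested genes (vertical axis) at the 5 stages, filled where the edgeR FDR is below 0.05. At d4 22 filled points lie right of 0 and 1 lies left of it, against 5 and 2 at d4G.

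Among hypoxia response genes the largest difference was in Egln3, the prolyl hydroxylase that is itself a HIF target. Its level at d4 was 2.18, 6.08 and 2.7 CPM in wildtype and 42.5, 51.3 and 49.4 CPM in Nr6a1-/-, with every Nr6a1-/- library far above every wildtype library (log2 difference 3.61 ± 0.28 (SE), edgeR FDR 9.65e-13). Bnip3 was at 6.98, 3.87 and 6.9 CPM and 21.7, 23.7 and 24.3 CPM, again without overlap (2.00 ± 0.28, FDR 1.47e-06). Ero1l, an oxidase of the endoplasmic reticulum, was at 7.85, 15.2 and 12.6 CPM and 24.3, 23.7 and 37.5 CPM (1.22 ± 0.22, FDR 8.6e-05). These 3 differences held under each alternative. In the libraries of the other 9 groups Egln3 lay between 2.18 and 19.7 CPM, below all of d4 Nr6a1-/-.

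Not all hypoxia response genes were higher. P4ha2 was lower in Nr6a1-/- at d4, at 13, 16.9 and 9.37 CPM against 25.3, 17.7 and 23.7 CPM in wildtype (log2 difference -0.76 ± 0.22 (SE), edgeR FDR 0.0128), a call lost without d4 wildtype replicate 1 (-0.67, FDR 0.0509) or d4 Nr6a1-/- replicate 3 (-0.56, FDR 0.129). Vegfa (0.35), Ankrd37 (-0.19), P4ha1 (-0.27) and Ndrg1 (-0.64) were not called. Egln1, the main oxygen-sensing prolyl hydroxylase, was higher (0.66 ± 0.20, edgeR FDR 0.0156), but its highest library, d4 Nr6a1-/- replicate 3 at 57.5 CPM, stood above the others of that group at 36.4 and 30 CPM, and without it the difference was 0.34 (FDR 0.319). Without d4 wildtype replicate 2 it was 0.51 (FDR 0.113). Egln1 and Ankrd37 lie on chromosome 8, whose 655 tested genes were lower in Nr6a1-/- as a whole (median log2 difference -0.29 at d4, against 0.04 for the other autosomes). At d2 that median was -0.38, against 0.004. The part of this shift in the values of Egln1 and Ankrd37 was not tested.

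Of the glycolytic path, Pfkp, the platelet phosphofructokinase, differed most at d4, at 20.8, 14 and 11.9 CPM in Nr6a1-/- against 8.72, 4.97 and 2.1 CPM in wildtype. The groups did not overlap (log2 difference 1.65 ± 0.31 (SE), edgeR FDR 0.00014). Aldoc, an aldolase, was at 31.6, 29.5 and 37.1 CPM against 17.9, 13.8 and 16.5 CPM (1.04 ± 0.22, FDR 0.000576). The abundant Aldoa, Pkm and Gpi1, the glucose-6-phosphate isomerase, were higher by 0.41, 0.37 and 0.59 on the log2 scale (FDR 8.49e-07 to 4.75e-05), all without overlap. The call of Pkm was lost with only the libraries compared (0.36, FDR 0.0721). Tpi1 (0.12), Gapdh (0.14), Hk1 (0.80) and Pfkm (0.28) were not called, and 1 library, d4 Nr6a1-/- replicate 1 with 628 CPM of Tpi1, stood above the others of its group at 338 and 374 CPM.

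At the pyruvate branch all 4 genes were higher at d4. Ldhb was at 202, 197 and 203 CPM in Nr6a1-/- against 109, 114 and 101 CPM in wildtype (log2 difference 0.89 ± 0.08 (SE), edgeR FDR 2e-10). Ldha differed less (0.29 ± 0.09, FDR 0.018), and its call was lost without d4 wildtype replicate 2 (0.23, FDR 0.131), d4 wildtype replicate 3 (0.26, FDR 0.0779) or d4 Nr6a1-/- replicate 1 (0.12, FDR 0.285). Pdk1, lower in Nr6a1-/- at the 3 earlier stages, was now higher, at 63.2, 34.8 and 46.4 CPM against 24.4, 28.2 and 25.2 CPM (0.89 ± 0.14, FDR 4.76e-06). It was not called to change from d3 to d4 in Nr6a1-/- (log2 change 0.23), whereas it fell in wildtype. Slc16a3 was also higher, at 81.4, 61 and 67.7 CPM against 31.8, 37 and 26.7 CPM (1.14 ± 0.14, FDR 1.78e-07).

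Whether the d3 to d4 change was the same in both genotypes was tested itself. A difference was called for 8 of the 32 genes, all more positive in Nr6a1-/-, against 2.97% of all genes more positive (5.72% in all). Egln3 had a log2 change of -0.96 in wildtype, not called, and rose by 2.09 in Nr6a1-/-, a difference of 3.04 ± 0.45 (SE, edgeR FDR 1.9e-05), and Pdk1 differed by 1.34 ± 0.19 (FDR 6.86e-06). Gpi1 differed by 0.60 ± 0.12 (FDR 0.000933). These 3 held under every alternative, and the other 5 did not. Without d4 wildtype replicate 3 those of Slc2a3, Pfkp and Ldhb were lost (edgeR FDR 0.103, 0.122 and 0.163), among other omissions, and that of Aldoc was lost without d3 wildtype replicate 3 (FDR 0.0521) or d3 Nr6a1-/- replicate 2 (FDR 0.0715). That of Bhlhe40 was lost with thinned counts (FDR 0.0767) and with d4 wildtype replicate 2 and d4 Nr6a1-/- replicate 3 both left out (FDR 0.0985). The shared direction rested on d4 Nr6a1-/- replicate 1. Without it 10 genes were called, 7 more positive and 3 more negative, the latter being Hk2 (-0.42, edgeR FDR 0.0371), Tpi1 (-0.45, FDR 0.0142) and Ldha (-0.33, FDR 0.0388), and the count over all genes rose from 695 to 1157. This comparison and those of d4 share the d4 libraries, so that their calls are not separate evidence.

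With Gdf11 most of these differences were not called. At d4G 5 genes were higher and 2 lower in Nr6a1-/-, against 3.28% and 4.63% of all genes (7.9% in all), and the median log2 difference of the list was 0.14. Of the 22 genes higher at d4, 17 were not called higher at d4G and 5 were, namely Egln3, Bnip3, Ldhb, Ldha and Pkm. Over all genes the share called higher was smaller at d4G as well, 3.28% against 9.7% at d4. A drop in calls was thus not particular to the list, and how many genes in all kept their d4 call was not counted. Egln3 was at 19.7, 17.8 and 15.9 CPM against 3.72, 2.44 and 3.8 CPM in wildtype (log2 difference 2.41 ± 0.36 (SE), edgeR FDR 8.54e-06) and Bnip3 at 14.9, 10.8 and 10.3 CPM against 6.51, 2.03 and 4.22 CPM (1.52 ± 0.36, FDR 0.00474). The groups did not overlap for either (24.3% of all genes). The call of Bnip3 was lost without d4G wildtype replicate 2 (1.16, FDR 0.0707), and that of Pkm (0.22, FDR 0.0272) without any 1 of the 6 libraries (0.18 to 0.23, FDR 0.0623 to 0.2). Markers differed at d4G as well. In Nr6a1-/- 7 of 8 tested endoderm genes were lower and 1 higher (272 to 300 CPM in wildtype against 113 to 127 CPM), 6 of 9 NMP genes were lower and 2 higher (708 to 717 against 488 to 544 CPM), 3 of 9 pluripotency genes were lower (85.2 to 114 against 49.7 to 53.4 CPM), and 3 of 6 tested PSM genes were higher (208 to 241 against 348 to 384 CPM). Of the neural genes 1 of 6 tested was lower (20.2 to 32.1 against 10.3 to 14 CPM). The part of these markers in the d4G differences was not tested.

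The genes lower in Nr6a1-/- at d4G were Ndrg1 and Slc2a3. Ndrg1 stood at 15.8, 24.8 and 11.4 CPM in wildtype and at 1.92, 1.27 and 4.29 CPM in Nr6a1-/-, with no overlap (log2 difference -2.69 ± 0.38 (SE), edgeR FDR 3.65e-06). Slc2a3 stood at 160, 132 and 113 CPM and at 74.1, 60.5 and 72.9 CPM (-0.95 ± 0.14, FDR 7.11e-06), whereas at d4 it had been higher in Nr6a1-/- at 217, 178 and 278 CPM against 184, 152 and 136 CPM (0.52 ± 0.12, FDR 0.00222, lost without d4 Nr6a1-/- replicate 3 at 0.33 and FDR 0.0735). Both calls at d4G held under every alternative.

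The response to Gdf11, d4G against d4, was therefore examined in each genotype. In wildtype 4 genes rose and 6 fell, against 14.3% and 14.5% of all genes (28.8% in all), with a median log2 change of -0.05. In Nr6a1-/- 1 rose and 17 fell, against 8.45% and 9.59% (18% in all), with a median of -0.58, against -0.02 over all genes. Without d4 Nr6a1-/- replicate 3 or d4G Nr6a1-/- replicate 3 14 genes were called in Nr6a1-/-, and without d4 Nr6a1-/- replicate 1 17 were, with a median of -0.35. The d4 Nr6a1-/- libraries enter both this comparison and that of the genotypes at d4. All wildtype libraries of d4 shared their indices with those of d4G, as did 1 of Nr6a1-/-, so that the part of pool in the response cannot be told apart. Tested directly, the response differed between genotypes for 4 genes, all more negative in Nr6a1-/-, against 1.49% of all genes (2.66% in either direction), and only that of Slc2a3 held under every alternative. Without d4 Nr6a1-/- replicate 1 6 genes were called, 5 more negative and 1, Tpi1, more positive (0.45, edgeR FDR 0.0161), and the count over all genes rose from 323 to 823.

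Several responses were seen in both genotypes. Slc2a1 fell from 265, 289 and 242 CPM to 86.5, 75.1 and 71.7 CPM in wildtype and from 360, 251 and 345 CPM to 76, 65.6 and 73.4 CPM in Nr6a1-/-, the largest fall of the list, with no overlap in either (log2 changes of -1.77 ± 0.11 and -2.15 ± 0.11 (SE), edgeR FDR 9.24e-16 and 6.16e-18). The log2 changes in wildtype and Nr6a1-/- were -1.50 and -1.90 for Aldoc, -0.78 and -1.50 for Pdk1, -0.74 and -0.62 for Tpi1 and -0.67 and -0.65 for Gapdh (edgeR FDR 2.28e-09 to 0.000411). Without d4 Nr6a1-/- replicate 1 that of Tpi1 in Nr6a1-/- was -0.29 and still called. P4ha2 rose in both, by 0.69 (edgeR FDR 0.00453, lost without d4 wildtype replicate 2 at 0.53 and FDR 0.0528) and 0.93 (FDR 0.00288). PSM markers fell with Gdf11 as well, 6 of 6 tested genes in each genotype, and their part in these changes was not tested.

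Other responses were called in a single genotype. In Nr6a1-/- alone Slc2a3 fell from 217, 178 and 278 CPM to 74.1, 60.5 and 72.9 CPM (log2 change -1.69 ± 0.14 (SE), edgeR FDR 3.98e-12), against 184, 152 and 136 CPM to 160, 132 and 113 CPM in wildtype (-0.22, not called), and the difference between these responses was -1.47 ± 0.19 (FDR 2.16e-06). Pfkp, Egln3 and Mxi1, an antagonist of Myc, fell by 1.88, 1.42 and 1.31 on the log2 scale in Nr6a1-/- (edgeR FDR 1.34e-05 to 0.00223), but for these the difference between genotypes was not called. In wildtype Bhlhe40 rose from 6.54, 5.53 and 6.3 CPM to 14.4, 16.2 and 14.8 CPM (1.31 ± 0.23, FDR 3.01e-05) and Ndrg1 rose by 1.05 (FDR 0.00445), a call lost without d4G wildtype replicate 2 (0.70, FDR 0.1). The log2 ratio of Slc2a3 to Slc2a1 counts at d4G was 0.78 ± 0.11 (SD, n = 3) in wildtype and -0.05 ± 0.06 in Nr6a1-/-, with no overlap.

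**Figure D5:**
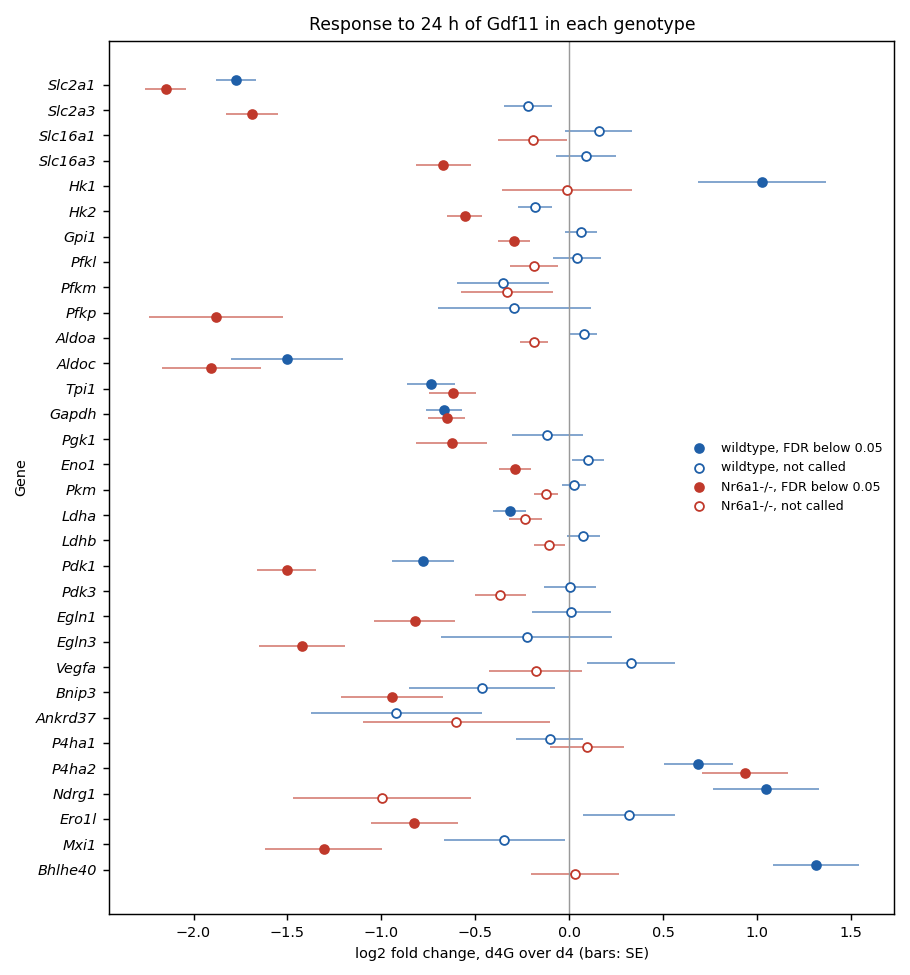
Log2 fold change of d4G over d4 (horizontal axis, with bars of 1 SE) for the 32 tested genes (vertical axis) in wildtype (blue) and Nr6a1-/- (red), filled where the edgeR FDR is below 0.05. Slc2a1 lies at the far left in both genotypes, and 17 filled red points lie left of 0 against 6 filled blue ones.

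Over the 5 genotype comparisons 26 of the 32 genes were called at 1 or more stages and 6 at none (Slc16a1, Hk1, Pfkm, Tpi1, Gapdh and Ankrd37). At d4 only, 10 were called. The matching shares over all genes were not counted, so that these counts describe the list only. At single stages the share of all genes called ran from 4.07% at d2 to 18.9% at d4. The 4 genes called in opposite directions at different stages were Pdk1 and Vegfa as described, Slc2a1, lower at d2.5 and higher at d4, and Slc2a3, higher at d4 and lower at d4G. The d4 call of Slc2a1 (0.27, edgeR FDR 0.0446) was lost in 11 of its 16 alternatives, over which FDR ranged from 0.00114 to 0.281, among them the omission of d4 wildtype replicate 1 (0.26) or 3 (0.18) or of d4 Nr6a1-/- replicate 1 (0.15) or 3 (0.21).

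Other genes of these pathways were counted at d4 over whole lists, also chosen with earlier results known. Of 33 tested further HIF targets 12 were higher and 1 lower in Nr6a1-/-, against 9.7% and 9.18% of all genes, with a median log2 difference of 0.22. This list overlapped the next, and Pfkfb3 was counted in both. The largest were Ddit4, an inhibitor of mTOR signalling (247 ± 42.6 against 55.4 ± 3.33 CPM (SD, n = 3), log2 difference 2.16, edgeR FDR 2e-15), the nuclear receptor Rora (1.46, FDR 0.000116) and Igfbp3, whose groups overlapped (1.17, FDR 0.0172). Of 19 tested further genes of glycolysis and pyruvate use 5 were higher and 0 lower, against the same shares (median 0.14), led by Pgm2, a phosphoglucomutase (65.2 ± 7.5 against 11.8 ± 3.06 CPM, FDR 2.21e-14), Pdp2, the phosphatase that reverses Pdk action (1.05, FDR 1.49e-07), and Pfkfb3, which makes an activator of phosphofructokinase (1.03, FDR 0.0117).

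Genes that build and control HIF itself were counted against the same 9.7% and 9.18% of all genes. Of 14 tested, 1 was higher at d4 (Cited2, a HIF-induced inhibitor of HIF activity, log2 difference 0.59, edgeR FDR 0.00168) and 1 lower (Epas1, the HIF-2 alpha subunit, at 0.968 ± 1.68 against 10.8 ± 3.84 CPM (SD, n = 3), -3.52, FDR 9.52e-06). Epas1 was also lower at d3 (-2.31, FDR 0.000326) and d4G (-3.30, FDR 2.29e-05). Of 10 tested pentose phosphate genes 1 was higher and 2 were lower at d4, against the same shares. At d4G the further HIF targets gave 2 higher and 3 lower of 33, against 3.28% and 4.63% of all genes.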

How the data were processed

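RNA of 30 libraries was primed at the poly(A) tail with an index and a molecular identifier (UMI), so that reads mark 3′ ends. The authors aligned reads with STAR (genome build mm10, per the submitters' processing notes) and deposited raw counts, whole numbers for each gene in each library. The counting tool, annotation, strand setting and UMI collapsing are not given in the sources used here. Tables of the authors' own comparisons (fold changes and p-values) were not used.

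Groups and replicate numbers came from the labels. The filter followed the study's methods, read here as over 10 counts and over 2 CPM in 2 or more libraries of any 1 group. edgeR 4.0.16 (R 4.3.3) fitted TMM-scaled counts in 1 model of 10 groups (20 residual degrees of freedom). Its 2-sided quasi-likelihood test was run for 16 comparisons, with Benjamini-Hochberg adjustment over all 12149 genes and calls at 0.05. CPM values are TMM-scaled. The script was tested on simulated data. The members and lists were chosen with earlier results of these data known. All 33 genes may be named. From each further list the rule allowed at most 3 called genes per comparison, those of largest change that averaged 10 CPM or more in a compared group. Near-identical copies were sought with BLAST+ 2.17.0 in GENCODE mouse release 21.

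Library totals ran from 1570714 to 3688197, where a count of 0 allows up to 0.829 to 1.91 CPM, a limit that covers counting error only. No replicate pair was a repeat of 1 library (chi-square per gene 1.45 to 6.68 over 30 pairs). Alternatives were RLE factors, DESeq2 1.42.0, no factors, scaling without the listed genes, no filter, only the libraries compared, thinned counts, a replicate block and each library left out. Summing near copies and leaving out 2 d4 libraries together were added after seeing the data.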

Additional observations from a re-analysis of the deposited data

Results flagged for a closer look

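In 15 cases the change of a gene differed between the genotypes by a test of the difference itself (edgeR, Benjamini-Hochberg FDR below 0.05), given here as the log2 change in Nr6a1-/- minus that in wildtype.

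For the response to Gdf11 these were Slc2a3 (-1.47 ± 0.19 (SE), edgeR FDR 2.16e-06), the lactate exporter Slc16a3 (-0.76 ± 0.22, FDR 0.0472), Ndrg1 (-2.04 ± 0.55, FDR 0.0316) and Bhlhe40 (-1.28 ± 0.33, FDR 0.021). Over the alternatives FDR of the last 3 ranged from 0.0102 to 0.333. Without d4 Nr6a1-/- replicate 3 only Slc2a3 was called, and without d4 Nr6a1-/- replicate 1 Eno1, Ero1l and Tpi1 were called and Slc16a3 was not, with Tpi1 in the positive direction.

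For the change from d2 to d3 they were Hk2 (0.67 ± 0.13, edgeR FDR 0.00128), Ldhb (0.57 ± 0.11, FDR 0.0028) and Vegfa (1.84 ± 0.42, FDR 0.0093). The call of Vegfa was lost without d3 wildtype replicate 3 (1.60, FDR 0.0505) and with thinned counts (1.77, FDR 0.0651).

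For the change from d3 to d4 they were Egln3 (3.04 ± 0.45, edgeR FDR 1.9e-05), Pfkp (1.62 ± 0.49, FDR 0.0413), Bhlhe40 (1.56 ± 0.34, FDR 0.00347), Aldoc (1.55 ± 0.41, FDR 0.017), Pdk1 (1.34 ± 0.19, FDR 6.86e-06), Gpi1 (0.60 ± 0.12, FDR 0.000933), Slc2a3 (0.59 ± 0.17, FDR 0.0308) and Ldhb (0.37 ± 0.11, FDR 0.0462). The calls of Egln3, Pdk1 and Gpi1 held under every alternative. That of Ldhb was lost in 18 of them and that of Pfkp in 12. Leaving out d4 Nr6a1-/- replicate 1, Hk2, Tpi1 and Ldha were called in the negative direction.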

How the results depend on the processing

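Of 175 calls of the listed genes over 16 comparisons, 112 held under every alternative run, 63 were lost under at least 1 and 0 changed direction. Thinned counts lost 31, DESeq2 lost 9 and omitting the normalisation factors lost 9. The replicate numbers did not pair the samples (same-number correlations -0.11 to 0.16, with 0 of 13 comparisons over 0.1 throughout, and 17 of 30 libraries correlating best with their own number). The replicate block lost 1 call, that of Vegfa at d3 (1.01, edgeR FDR 0.0519), and gave 23 calls at d4, 10 at d3 and 20 for the Gdf11 response in Nr6a1-/-. Leaving out 1 library at a time, the count of listed genes called ranged from 4 to 7 at d2.5, from 5 to 9 at d3 and from 15 to 22 at d4 between the genotypes, from 1 to 6 for the difference in Gdf11 response and from 4 to 10 for the difference in d3 to d4 change. Of these, 1 of 6 and 3 of 10 lay in the direction opposite to the rest without d4 Nr6a1-/- replicate 1. With thinned counts 6 were called at d3, 1 for the difference in Gdf11 response and 4 for the difference in d3 to d4 change. With only the libraries compared 9 were called for d2.5 to d3 in wildtype, 1 for the difference in Gdf11 response and 5 for the difference in d3 to d4 change. DESeq2 called 2 for the difference in Gdf11 response. With d4 wildtype replicate 2 and d4 Nr6a1-/- replicate 3 both left out, an alternative chosen after seeing the data, 14 were called at d4, 2 for the difference in Gdf11 response and 3 for the difference in d3 to d4 change. The cause of these changes was not tested, beyond the fewer counts or libraries of the alternatives themselves. Counts were lowest for Ankrd37, Ndrg1, Hk1 and Pgam1, and the part of depth in their results was not tested.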
